A study of Mus musculus with 8 samples.

Results

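The voltage-gated and potassium channel genes are those whose symbol begins with Kcn, with Cacna, Cacnb or Cacng, or with Scn followed by a digit or n, together with Abcc8, the sulphonylurea receptor subunit of the KATP channel. Antisense RNAs of these loci, 3 in all, were left out. By this rule 127 of the 20726 genes listed in the deposited tables were channel genes. They comprised 37 voltage-gated potassium pore subunits and 13 of their accessory subunits, 12 calcium- or sodium-activated potassium channel genes, 11 two-pore-domain potassium channels and 13 inward rectifiers outside the KATP channel. The others were 3 KATP subunits, 10 calcium channel pore subunits and 12 accessory subunits, 10 sodium channel pore subunits and 3 beta subunits, and 3 subunits of the epithelial sodium channel.

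As background, enteroendocrine cells are electrically excitable: potassium channels hold the membrane at rest, and closure of KATP channels or entry of sodium with glucose depolarises it. Voltage-gated sodium and calcium channels then fire, and the calcium that enters triggers the release of hormone granules. Delayed rectifier and calcium-activated potassium channels bring the membrane back to rest.

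Cells came from mouse intestinal organoids of the C57BL/6 strain in 3 hormone reporter lines, Tac1, Gcg and Gip, and were sorted singly into 384-well plates for reporter positivity. Tac1 encodes the substance P precursor of enterochromaffin cells, Gcg the precursor of GLP-1 and Gip an incretin hormone. By the sample titles the Tac1 and Gip reporters are Cre lines, in which a label can persist after the gene is switched off, and the Gcg reporter marks cells with the Venus fluorescent protein. The organoids were left without BMP4, a ligand of the bone morphogenetic protein pathway, or were given it for 24 h or for 4 days. All 3 conditions lay on each of 5 plates (Tac1 plates 1 and 2, Gcg plates 1 and 2, and 1 Gip plate), and 3 further Tac1 plates held BMP4-treated cells only, 1 of 24 h and 2 of 4 days. No label states that the plates are independent cultures, and a p-value here weighs a difference against plate-to-plate spread alone, part of which may be technical.

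Of 3072 wells, 1006 held at least 2000 transcripts and were kept. Transcripts were summed by plate and condition, and 14 sums on the 5 plates held at least 10 cells (16 to 135 cells, 104278 to 1251853 transcripts). The 24 h block of Tac1 plate 2 had too few cells (9) to be summed, so 24 h of BMP4 was not tested within the Tac1 line. Of the 11 general enteroendocrine markers 10 or 11 were detected on each untreated plate, but their summed level was 83880 to 84830 CPM (the count of a gene scaled to a fixed library total) on the untreated Tac1 plates, 7383 to 13280 on the Gcg plates and 12630 on the Gip plate. The summed level of 12 enterocyte markers was 585 to 742 CPM, 7762 to 12220 CPM and 1784 CPM in the same order. Of the 4 neuron and glia markers, 1 to 3 were above 0 on each untreated plate, with a sum of at most 29.7 CPM. The part of these markers in the results below was not tested. The tables from the Tac1 plates and those from the other plates also list different genes, so reporter line, plate and kind of table cannot be told apart.

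In untreated cells the channel transcript with the highest mean over the plates was Cacna1a, the pore of the P/Q-type calcium channel, at 469.5 ± 92.8 CPM (SD, n = 5 plates). It led on the Gcg plates, while Scn3a was above it on both Tac1 plates and Abcc8 on the Gip plate. Because the method counts 1 tag at the end of each transcript, CPM can be compared between genes without a correction for length. Cacna1a stood at 552.9 and 508.3 CPM on the Tac1 plates, 347.8 and 544.0 CPM on the Gcg plates and 394.4 CPM on the Gip plate. The levels of the 3 lines overlapped, and Cacna1a was found in 45.3 to 58.8% of untreated cells when each cell was thinned to 2000 transcripts.

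Next in order were Scn3a, the Nav1.3 sodium channel, at 365.2 ± 374.0 CPM, and Abcc8 at 251.5 ± 276.8 CPM, both with a spread as large as the mean. Cacna1h, the Cav3.2 pore of a T-type channel that opens at low voltage, followed at 198.6 ± 72.1 CPM. Cacna2d1, an alpha2-delta subunit that carries calcium channels to the membrane, followed at 178.2 ± 62.2 CPM (SD, n = 5 plates for each). The SDs of neighbours in this order overlapped, so the order itself is not resolved by these plates. The two-pore-domain potassium channel Kcnk1 stood at 104.4 ± 27.9 CPM and the calcium channel beta subunit Cacnb3 at 87.8 ± 25.8 CPM. The delayed rectifier Kcnb2 (Kv2.2), at 61.9 ± 18.9 CPM, was also among the 12 highest.

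**Figure D1:**
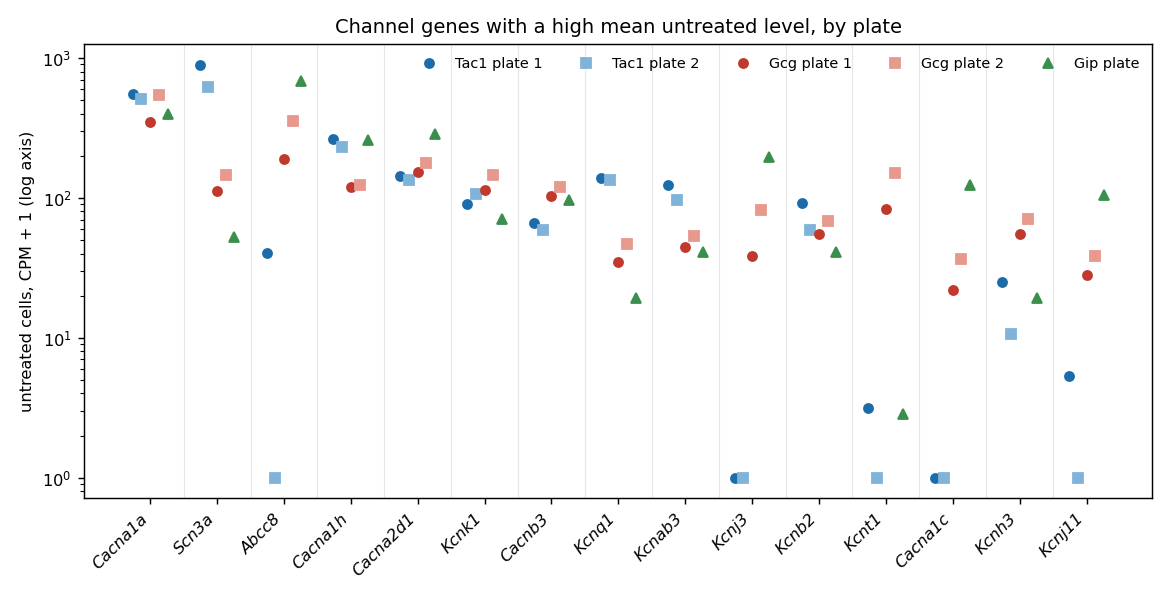
CPM + 1 on a log axis for 15 channel genes among the 16 with the highest mean untreated level, 1 point per plate, coloured by plate. Cacna1a lies between 347.8 and 552.9 CPM on all 5 plates, whereas Kcnj3 and Cacna1c lie at 0 on both Tac1 plates.

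Most channel genes were scarce. Of the 127, 89 had at least 1 transcript on an untreated plate, 43 reached 10 CPM on at least 1 of them and 14 reached 100 CPM. A cell thinned to 2000 transcripts showed a median of 3 to 5 different channel genes in each plate and condition. The summed level of all channel genes was 1999 to 2990 CPM in untreated cells, a narrow range beside the differences in its make-up that follow.

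Calcium channel pores gave 24.8 to 33.7% of channel transcripts on every untreated plate. Sodium channel pores gave 34.3 and 30.5% on the Tac1 plates, 6.57 and 6.20% on the Gcg plates and 2.15% on the Gip plate. KATP subunits ran the other way, at 1.54 and 0% on the Tac1 plates, 10.7 and 14.9% on the Gcg plates and 26.3% on the Gip plate. Voltage-gated potassium pores gave 10.8 to 17.9% throughout.

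**Figure D2:**
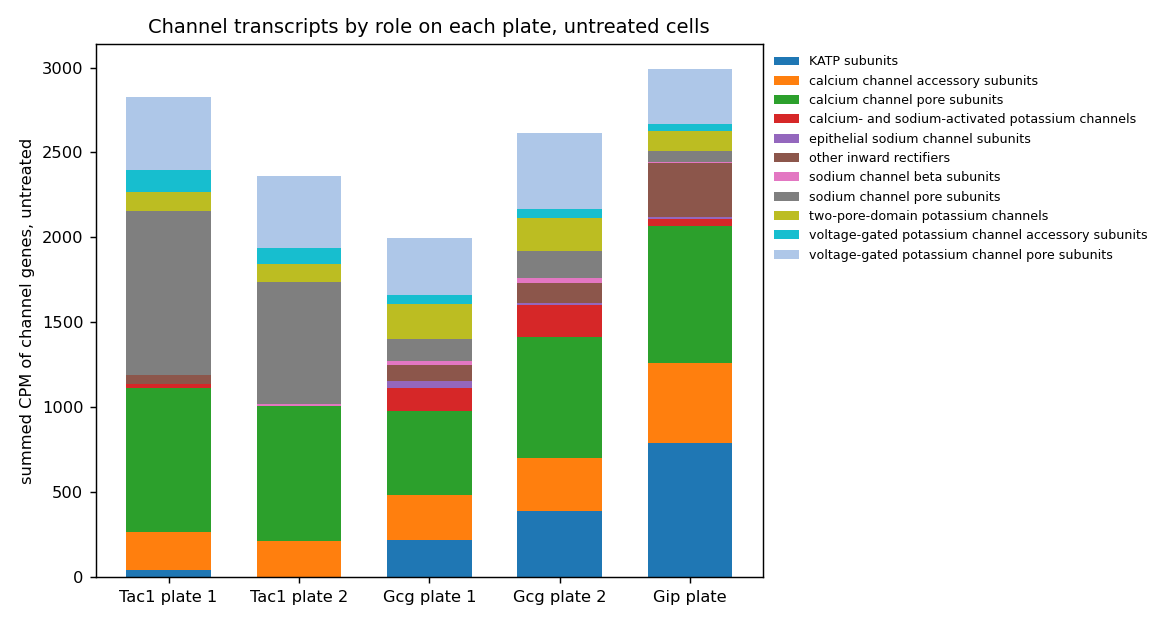
Stacked bars of the summed CPM of channel genes in untreated cells of each plate, coloured by role. Sodium channel pores fill 34.3 and 30.5% of the Tac1 bars, and KATP subunits fill 26.3% of the Gip bar.

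The untreated Gcg plates were compared with the untreated Tac1 plates in a fit that also held the Gip plate (edgeR quasi-likelihood test, Benjamini-Hochberg adjustment over 9168 genes). The Gip plate had its own term in this fit and added nothing to the estimate of spread. That estimate came from the pair of Tac1 plates and the pair of Gcg plates, with 2 residual degrees of freedom. Here and in every edgeR fit below, the spread of a gene was also drawn toward that of all tested genes. A p-value therefore rests in part on the spread of other genes, and not on the plates' own values of that gene alone. Of 34 channel genes that passed the filter on low counts, 10 were higher and 8 lower in the Gcg line. That is 52.9% of those tested, where 16.4% of all tested genes were called, 8.79% higher and 7.66% lower. A gene enters this test partly through being high in 1 line, so the share describes the tested genes and not all 127. The median log2 difference was 0.44 for channel genes and 0.09 for all genes. The Gcg plates lay wholly above or wholly below both Tac1 plates for 27 of the 34 (79.4%). For all genes tested the share was 57.8%. These shares leave out counting error. A count of 0 on untreated Tac1 plate 2 allows up to 28.8 CPM. That is above the level of Kcnj11 (26.9 CPM) and Cacna1c (21.1 CPM) on Gcg plate 1 and of Scnn1a (11.9 CPM) on Gcg plate 2. Their levels on the other Gcg plate were above that limit. For these genes Tac1 plate 2 cannot show that the lines lay apart.

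Both tested KATP subunits were higher in the Gcg line. In these sums fewer cells of a type and less RNA per cell cannot be told apart. Abcc8 stood at 39 and 0 CPM on the Tac1 plates, 187.4 and 350.8 CPM on the Gcg plates and 680.5 CPM on the Gip plate. The 3 lines did not overlap, and the log2 difference between Gcg and Tac1 was 3.13 ± 0.52 (SE, edgeR adjusted p = 6.7e-05). Kcnj11, the Kir6.2 pore that pairs with Abcc8, followed the same order at 4.34 and 0, then 26.9 and 37.2, then 104.6 CPM, with a log2 difference of 3.06 ± 0.83 (edgeR adjusted p = 0.010). Its Tac1 level rests on 2 transcripts, and the ratio of pooled levels was 8.89 (exact 95% counting interval 2.33 to 75.5). The 2 genes are neighbours on chromosome 7 (GRCm38), both on the minus strand, Kcnj11 at chr7:46093953-46100764 and Abcc8 at chr7:46104523-46180033, with 3758 bases between them. Abcc8 was found in 73% of thinned Gip cells (Wilson 95% interval 61 to 82.4%), in 32.8 and 37.3% of Gcg cells and in 4.41 and 0% of Tac1 cells. The third KATP gene, Kcnj8, did not exceed 1.49 CPM on any untreated plate.

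Kcnj3 encodes Kir3.1, a G protein-gated inward rectifier that inhibitory receptors open. It gave no transcript in the summed cells of any of the 5 Tac1 plates, treated or not. In untreated cells it stood at 37.5 and 80.3 CPM on the Gcg plates and 194.4 CPM on the Gip plate. Set against a floor of 3 counts over both untreated Tac1 plates (5.31 CPM), the pooled Gcg level of 56.3 CPM was 10.6-fold higher (edgeR adjusted p = 9.1e-05). With Gcg plate 1 alone it was 7.06-fold higher. Such ratios to the floor, here and below, leave out the counting error of the Gcg level. Its channel partner Kcnj5 stood at 32.5 and 0 CPM on the Tac1 plates, 24.6 and 25.3 CPM on the Gcg plates and, as Kcnj3, was highest on the Gip plate, at 82.5 CPM. The log2 difference between Gcg and Tac1 was -0.02 ± 0.58 (edgeR adjusted p = 0.99), and ran from -0.45 without Tac1 plate 2 to 6.76 without Tac1 plate 1. On Tac1 plate 2 a count of 0 allows up to 28.8 CPM, so the direction is not resolved.

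The calcium channel pores split between the lines. Cacna1c, the L-type Cav1.2 pore, stood at 0 on both Tac1 plates, at 21.1 and 35.7 CPM on the Gcg plates and at 122.9 CPM on the Gip plate. The pooled Gcg level of 27.5 CPM was 5.19-fold above the Tac1 floor (edgeR adjusted p = 0.0018). Cacna1d, the other L-type pore of endocrine cells (Cav1.3), lay the opposite way, at 34.7 and 48 CPM on the Tac1 plates against 2.34 and 5.95 CPM on the Gcg plates (log2 difference -3.23 ± 0.87, edgeR adjusted p = 0.0094). The Gip plate held 14.7 CPM of Cacna1d, between the other lines. Cacna1h was lower in the Gcg line by a smaller step, at 262.4 and 230.2 CPM on the Tac1 plates against 118.3 and 123.4 CPM (-1.06 ± 0.34, edgeR adjusted p = 0.033), and the Gip plate, at 258.6 CPM, lay with the Tac1 plates. None of the 4 accessory subunits tested passed. Cacna2d1 differed by 0.21 ± 0.35 and Cacnb3 by 0.78 ± 0.39 on the log2 scale (edgeR adjusted p = 0.76 and 0.20).

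Of the sodium channel pores, 2 of 3 tested were lower in the Gcg line. Scn3a stood at 895.5 and 623.3 CPM on the Tac1 plates, at 110.1 and 145.7 CPM on the Gcg plates and at 51.4 CPM on the Gip plate. All Tac1 values exceeded all others, with a log2 difference of -2.61 ± 0.37 between Gcg and Tac1 (edgeR adjusted p = 7.8e-06). Scn3a was found in 75.0 and 68.8% of thinned Tac1 cells, in 20.3 and 17.3% of Gcg cells and in 15.9% of Gip cells. Scn1a (Nav1.1) was scarcer, at 54.2 and 38.4 CPM on the Tac1 plates against 4.68 and 8.92 CPM on the Gcg plates and 1.83 CPM on the Gip plate (-2.87 ± 0.74, edgeR adjusted p = 0.0072). The beta subunit Scn3b was not called, at 2.17 and 9.59 CPM against 23.4 and 26.8 CPM (2.65 ± 1.08, edgeR adjusted p = 0.099). Scn9a, the Nav1.7 pore of sensory neurons, did not exceed 2.34 CPM on any untreated plate. Scnn1a, the alpha subunit of the epithelial sodium channel, gave no transcript on the untreated Tac1 plates and 43.3 and 11.9 CPM on the Gcg plates, at least 5.56-fold above the floor for the pooled plates (edgeR adjusted p = 0.012). With Gcg plate 2 alone the bound was 2.24-fold, and with Gcg plate 1 alone 8.17-fold.

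Among potassium channels gated by voltage or by ions, Kcnt1 was high on the Gcg plates. Kcnt1 encodes the sodium-activated channel Slack. It stood at 2.17 and 0 CPM on the Tac1 plates, 81.97 and 150.1 CPM on the Gcg plates and 1.83 CPM on the Gip plate, so the Gcg plates lay apart from both other lines (log2 difference from Tac1 5.81 ± 0.82, edgeR adjusted p = 7.0e-06). The Tac1 level rests on 1 transcript in all, and the ratio of pooled levels was 63.3 (exact 95% counting interval 11.2 to 2516). Kcnma1, the large-conductance calcium-activated channel, was higher on the Gcg plates at 26.9 and 20.8 CPM against 2.17 and 0 CPM (3.58 ± 1.16, edgeR adjusted p = 0.032), and stood at 27.5 CPM on the Gip plate. Its ratio of Gcg to Tac1 in untreated cells, again over 1 Tac1 transcript, was 13.7 (2.31 to 556). A count of 0 on Tac1 plate 2 allows up to 28.8 CPM, which is above both Gcg values. On the single-condition Tac1 plates Kcnma1 stood at 31.1 CPM at 24 h and at 40.8 and 13.5 CPM at 4 days, from 6, 4 and 2 transcripts.

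Kcnb2 was not called, at 53.9 and 66.9 CPM on the Gcg plates against 91.1 and 57.5 CPM on the Tac1 plates (-0.44 ± 0.42, edgeR adjusted p = 0.55). Kcnh3, an ether-a-go-go family channel, was higher in the Gcg line (1.54 ± 0.54, edgeR adjusted p = 0.049), while its relative Kcnh1 was lower (-3.61 ± 1.06, edgeR adjusted p = 0.018) and Kcnh2, the HERG channel, was not called (1.00 ± 0.76, edgeR adjusted p = 0.43). Kcnq1, the Kv7.1 channel that forms slow potassium currents in epithelia, was lower at 34 and 46.1 CPM against 136.6 and 134.3 CPM (-1.78 ± 0.41, edgeR adjusted p = 0.0024). The antisense RNA Kcnq1ot1 lies across this locus, and whether counting used strand is not given in the sources used here, so reads of the 2 cannot be told apart. Kcnq1ot1 itself differed by 0.34 ± 0.75 (edgeR adjusted p = 0.82).

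The fast delayed rectifier Kcnc1 (Kv3.1) was lower, at 2.34 and 0 CPM on the Gcg plates against 30.4 and 76.7 CPM on the Tac1 plates (-4.92 ± 1.14, edgeR adjusted p = 0.0027). The Gcg level rests on 2 transcripts, and the ratio of Tac1 to Gcg was 29.7 (exact 95% counting interval 7.3 to 261). The call was lost without Gcg plate 2, and Kcnc1 was not called without Tac1 plate 1 either. The beta subunit Kcnab3 was lower at 43.3 and 52 CPM against 123.6 and 95.9 CPM (-1.28 ± 0.41, edgeR adjusted p = 0.029). Of the two-pore-domain channels that set the resting potential, the acid-sensitive TASK-1 gene Kcnk3 was higher at 45.7 and 38.6 CPM against 8.67 and 0 CPM (2.55 ± 0.73, edgeR adjusted p = 0.016). Kcnk1 differed by 0.43 ± 0.37 (edgeR adjusted p = 0.50).

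**Figure D3:**
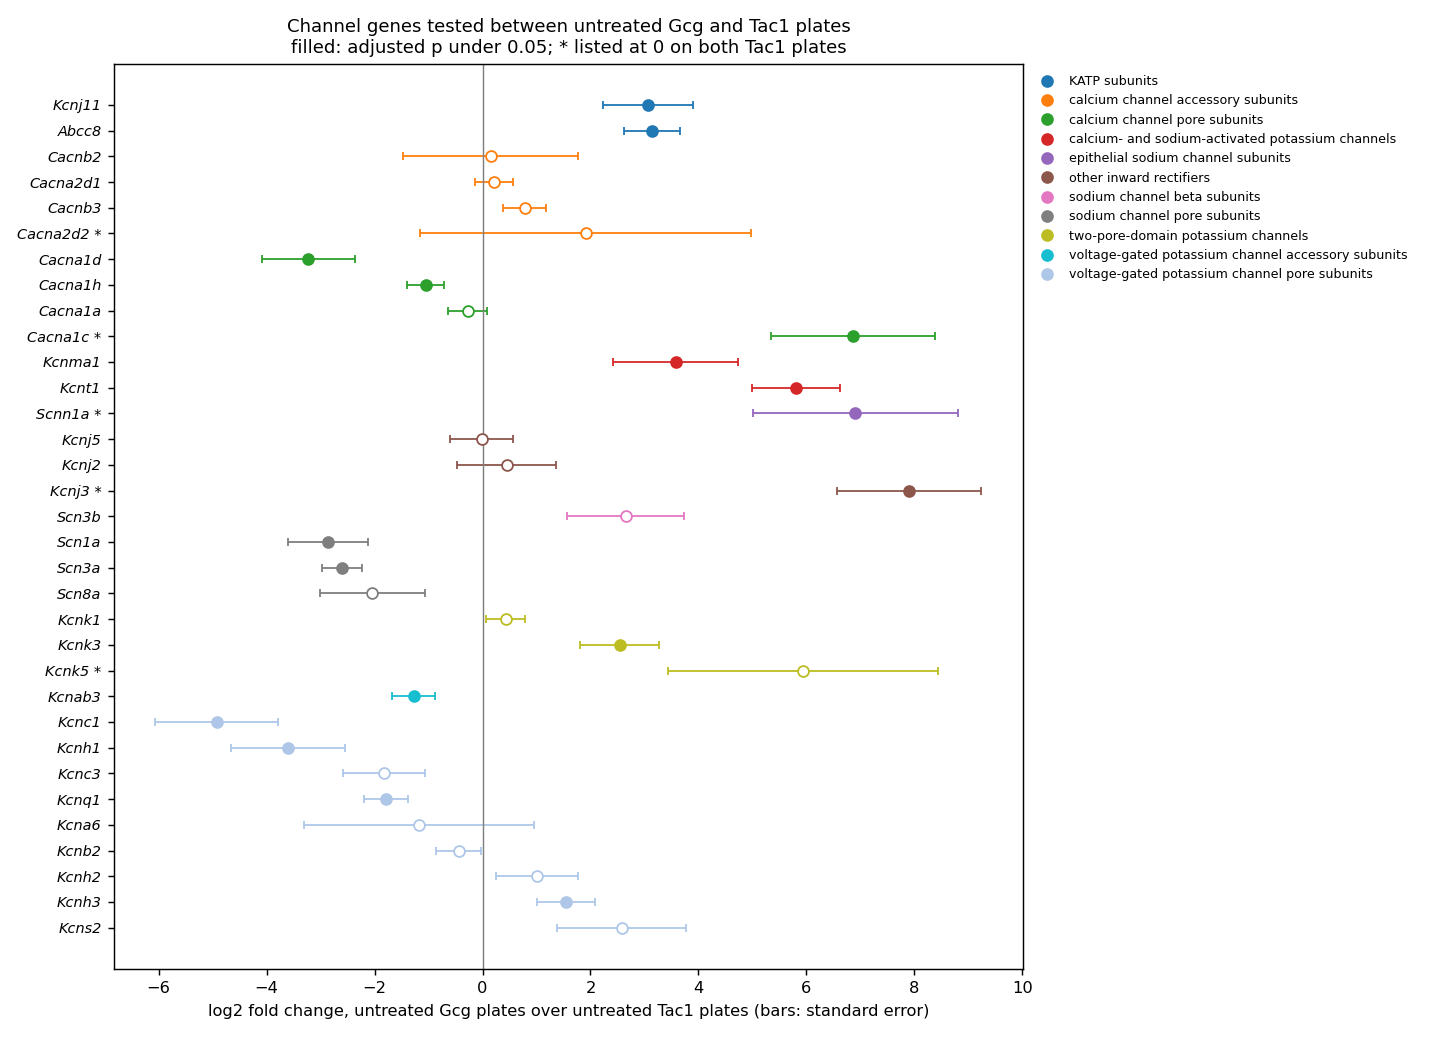
Log2 fold change of 33 of the 34 tested channel genes, untreated Gcg plates over untreated Tac1 plates, with standard errors worked back from the F statistic. Colours give the role, and filled points have an adjusted p under 0.05. Kcnt1 at 5.81 and Abcc8 at 3.13 lie to the right, and Scn3a at -2.61 and Kcnc1 at -4.92 to the left; genes marked with an asterisk have no Tac1 transcript and no finite fold.

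The called differences given here kept their direction under every alternative run, but the number of calls did not hold. DESeq2 called 5 of the 34, and leaving out Tac1 plate 1, Gcg plate 1 or Gcg plate 2 left 5, 9 and 9 calls, all of them among the 18. Kcnt1, Scn3a and Kcnj3 were called in all 13 alternatives each, and Abcc8 and Kcnq1 in all but DESeq2. Of the 17 calls named here 14 were lost somewhere, and 12 when a plate was left out. Without Tac1 plate 1 these were Cacna1c, Kcnj11, Scnn1a, Scn1a, Cacna1d, Kcnk3, Kcnab3, Kcnma1, Cacna1h and Kcnh3. Kcnc1 and Kcnh1 are not counted as lost there, but they were not called without that plate either. Without Gcg plate 1 or without Gcg plate 2 they were Scn1a, Cacna1d, Kcnh1, Kcnab3, Kcnma1, Cacna1h and Kcnh3, with Kcnk3 also lost without the first and Kcnj11 and Kcnc1 without the second. Kcnh3 was also lost without Tac1 plate 2 or the Gip plate, and its adjusted p, the highest of these, reached 0.36 over the alternatives.

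Cells of 1 line were not uniform. They were grouped by their dominant hormone, the one with at least 20 transcripts and at least 50% of the sum of 8 hormones. This grouping was chosen after the data were seen, its classes pool plates and conditions, and the levels carry exact Poisson 95% intervals for counting error only, with no test. On the Gip plate, Kcnj3 stood at 219.3 CPM (195.6 to 245.1) in 209 Gip-dominant cells and at 9.22 CPM (2.99 to 21.5) in 53 cells dominated by Sst, the somatostatin gene. Those same classes held similar levels of Abcc8, at 762.6 CPM (717.7 to 809.5) and 695.5 CPM (627.0 to 769.3), and of Kcnj11, at 105.4 CPM (89.2 to 123.7) and 112.5 CPM (86.1 to 144.5). Within this plate the intervals of the 2 hormone classes lay apart for Kcnj3 and overlapped for both KATP subunits.

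On the Gcg plates 19 cells were Gip-dominant. Their intervals overlapped those of Gip-dominant cells of the Gip plate for Kcnj3 and Kcnj11. The intervals lay apart for Abcc8, which was lower on the Gcg plates, and for Kcnt1, which was higher there. Kcnj3 stood at 198.8 CPM (154.3 to 252.0), Abcc8 at 505.7 CPM (433.1 to 586.9) and Kcnj11 at 108.1 CPM (76.2 to 149.1). In 106 Gcg-dominant cells of the same plates the values were 26.5 CPM (18.8 to 36.4), 276.5 CPM (249.9 to 305.1) and 30.02 CPM (21.7 to 40.4). Kcnt1 ran the other way, at 29.2 CPM (14 to 53.8) in Gip-dominant and 106.8 CPM (90.6 to 125.2) in Gcg-dominant cells, and stood at 2.83 CPM (0.77 to 7.25) in Gip-dominant cells of the Gip plate.

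The 85 cells dominated by Nts, the neurotensin gene, showed another profile. Kcnk3 stood at 199.7 CPM (170.4 to 232.7) there against 33.5 CPM (24.7 to 44.4) in Gcg-dominant cells. Kcnh3 stood at 148.9 CPM (123.8 to 177.7) against 37 CPM (27.7 to 48.4), and Kcnq1 at 115.0 CPM (93.1 to 140.6) against 20.3 CPM (13.6 to 29.1). Scnn1a and Kcnc4 were also higher, at 66.6 CPM (50.2 to 86.7) against 10.5 CPM (5.86 to 17.3), and at 36.3 CPM (24.5 to 51.8) against 0.70 CPM (0.02 to 3.89). These classes are not spread evenly over the conditions: of the Nts-dominant cells 49 came from 4 days of BMP4 and 23 from 24 h, and of the Gcg-dominant cells 65 were untreated. Within the 24 h blocks alone, a split added after the data were seen, 23 Nts-dominant cells held 106.4 CPM of Kcnk3 (69.5 to 155.8) and 37 Gcg-dominant cells 26.5 CPM (15.4 to 42.4). Kcnh3 stood there at 220.9 CPM (166.0 to 288.2) against 28.1 CPM (16.6 to 44.4), Kcnq1 at 204.5 CPM (151.8 to 269.7) against 23.4 CPM (13.1 to 38.6) and Scnn1a at 135.0 CPM (92.9 to 189.6) against 7.80 CPM (2.53 to 18.2). Those intervals did not overlap, whereas those of Kcnc4 did, at 16.4 CPM (4.46 to 41.9) against 1.56 CPM (0.04 to 8.69).

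On the Tac1 plates Scn3a stood at 940.8 CPM (827.4 to 1065) in 26 Tac1-dominant cells and at 889.7 CPM (806.8 to 978.8) in 79 Sst-dominant cells. On the Gip plate Sst-dominant cells held 36.9 CPM of Scn3a (22.5 to 57). The same dominant hormone went with different levels of Scn3a on plates of different lines. Abcc8 was seen in Sst-dominant cells of the Tac1 plates at 78 CPM (54.9 to 107.5), with 0 of 263599 transcripts in the Tac1-dominant cells (0 to 14 CPM).

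**Figure D4:**
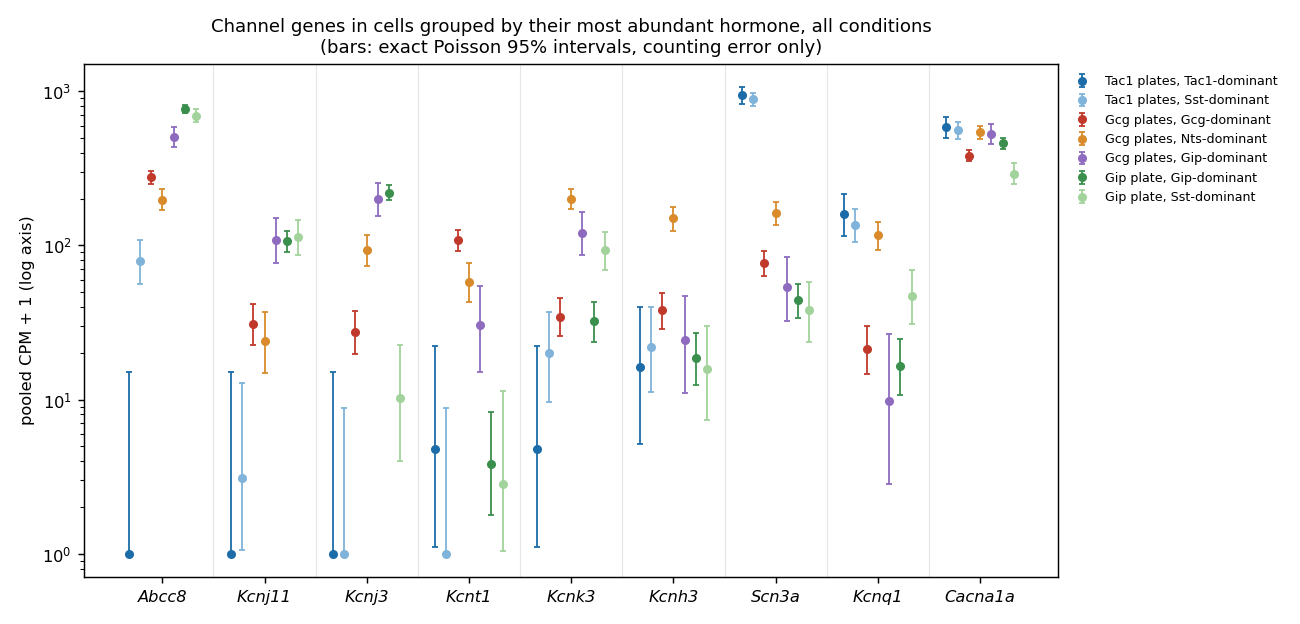
Pooled CPM + 1 on a log axis of 9 channel genes in 7 classes of cells named by plate and dominant hormone, all conditions pooled; bars are exact Poisson 95% intervals. Kcnj3 is at 198.8 and 219.3 CPM in the Gip-dominant classes and at 9.22 CPM in Sst-dominant cells of the Gip plate, and among the 7 classes Scn3a is highest in those of the Tac1 plates, at 940.8 and 889.7 CPM.

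BMP4 for 4 days was compared with no BMP4 over the 5 plates, with plate as a block. Of 39 channel genes tested, 2 rose and 2 fell. That is 10.3% of those tested, beside 3.54% of all 9578 genes (2.63% that rose and 0.908% that fell). The median log2 change was -0.05 for channel genes and 0.01 for all genes. Markers of other cell types moved in the same comparison. The median change was 1.30 for 12 tested enterocyte markers, 2 of which rose, 1.16 for 7 goblet markers (2 rose and 1 fell) and -0.43 for 11 enteroendocrine markers, of which Rfx6 fell. The summed level of enterocyte markers was 585 to 12220 CPM without BMP4 and 1803 to 19680 CPM at 4 days, that of goblet markers 1989 to 12720 and 2102 to 24470 CPM, and that of enteroendocrine markers 7383 to 84830 and 5908 to 45460 CPM. Their part in the channel results was not tested.

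Kcnc1 showed the largest rise by p-value. The Tac1 plates held 30.4 and 76.7 CPM without BMP4 and 329.9 and 409.0 CPM after 4 days, and the Gip plate held 3.67 and then 71.99 CPM. On the Gcg plates it stood at 2.34 and 0 CPM without BMP4 and at 5.59 and 5.81 CPM after 4 days. The level was higher on 5 of 5 plates, with a wide step on the Tac1 and Gip plates and a step of a few CPM on the Gcg plates. The log2 change was 3.27 ± 0.39 (SE, edgeR adjusted p = 0.00027). At 24 h Kcnc1 stood at 48.6 CPM on Tac1 plate 1 and 13.8 CPM on the Gip plate, and the step from 24 h to 4 days was 2.49 ± 0.43 (edgeR adjusted p = 0.023), the 1 call in that comparison among 39 channel genes (0.491% of all genes). That call was lost without the Gip plate (edgeR adjusted p = 0.18) and without Tac1 plate 1 (0.36), with a range of 8.2e-07 to 1.0 over alternatives. Thinned to 2000 transcripts, the share of cells with a Kcnc1 transcript went from 5.88 to 29.3% on Tac1 plate 1, from 6.25 to 53.3% on Tac1 plate 2 and from 0 of 63 to 9.77% on the Gip plate, while on Gcg plate 1 it stood at 1.56 and 3.19%.

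The Tac1 plates that held 1 condition took no part in these tests. Kcnc1 stood at 346.4 and 410.4 CPM on the 2 plates of 4 days, close to the treated cells above, and at 26 CPM on the plate of 24 h. On the 5 tested plates the nuclear antisense RNA Kcnq1ot1 rose as well, by 2.37 ± 0.42 (edgeR adjusted p = 0.0049), and the summed level of 3 nuclear RNAs was 10930 to 29270 CPM in untreated cells and 31330 to 106500 CPM at 4 days. Wells under 2000 transcripts, which were left out, held 43% of all Kcnc1 transcripts, beside 9.72% of the transcripts of all genes. With a minimum of 1000 or of 4000 transcripts per cell the rise from no BMP4 to 4 days over the 5 plates was also called. With 4000 transcripts, however, neither the rise within the Tac1 line nor the step from 24 h to 4 days was called. The part of nuclear RNA and of low-content wells in the Kcnc1 result was not tested.

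Kcnc4 (Kv3.4), of the same Kv3 family, rose by 3.29 ± 0.87 (edgeR adjusted p = 0.047) from low counts. It stood at 2.17 and 4.92 CPM without and with 4 days of BMP4 on Tac1 plate 1, 0 and 9.51 CPM on Tac1 plate 2, 1.17 and 23.2 CPM on Gcg plate 1, 1.49 and 5.81 CPM on Gcg plate 2 and 0 and 2.29 CPM on the Gip plate. Most of its transcripts lay on the Gcg plates, where at 24 h it already stood at 11.7 and 18.6 CPM. The pooled counts were 3 without BMP4 and 34 at 4 days, a ratio of levels of 11.5 (exact 95% counting interval 3.61 to 58.3). Of the 34 transcripts, 29 came from Gcg plate 1. Without that plate the counts were 2 and 5 and the ratio 3.29 (0.538 to 34.5), and Kcnc4 did not pass the filter for the test. The 250 bases before the RefSeq start of the 2 genes that rose (GRCm38.p6) are shown because Kcnc1 and Kcnc4 were the channel genes that passed as higher at 4 days, though on different plates. They are at chr7:46396218-46396467 on the plus strand and chr3:107458899-107459148 on the minus strand, and capitals mark GGCGCC, a GC-rich motif known to bind Smad proteins of the BMP pathway, which is its own reverse complement.
Kcnc1: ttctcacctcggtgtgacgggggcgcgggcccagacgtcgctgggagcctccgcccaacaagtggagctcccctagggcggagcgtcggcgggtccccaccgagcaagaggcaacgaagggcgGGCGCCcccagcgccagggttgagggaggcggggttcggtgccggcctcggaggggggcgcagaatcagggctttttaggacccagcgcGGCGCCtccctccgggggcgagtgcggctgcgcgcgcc
Kcnc4: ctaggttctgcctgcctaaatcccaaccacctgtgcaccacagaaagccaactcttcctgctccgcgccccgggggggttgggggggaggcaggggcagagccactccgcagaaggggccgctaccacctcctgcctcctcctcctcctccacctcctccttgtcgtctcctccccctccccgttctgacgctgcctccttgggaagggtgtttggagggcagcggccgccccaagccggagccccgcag
The Kcnc1 window held 2 matches in a GC content of 74.4%, and the Kcnc4 window 0 in 68%. GGCGCC was found in 9.59% of all 32851 RefSeq windows of this length and in 23 of the 128 windows (18%) of the 94 channel genes with an entry. A match describes the letters and does not show a site.

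Both genes that fell did so on all 5 plates. Cacna1h went from 262.4 to 162.5 CPM and from 230.2 to 66.6 CPM on the Tac1 plates, from 118.3 to 36 CPM and from 123.4 to 63.9 CPM on the Gcg plates and from 258.6 to 105.1 CPM on the Gip plate. The log2 change was -1.13 ± 0.21 (edgeR adjusted p = 0.0068). The levels with and without BMP4 overlapped between lines. A plate gave a single value per condition, so overlap within a plate cannot be judged from these levels. Kcnab3 went from 123.6 to 19.7 CPM and from 95.9 to 28.5 CPM on the Tac1 plates, from 43.3 to 14.4 CPM and from 52 to 29 CPM on the Gcg plates and from 40.4 to 6.86 CPM on the Gip plate (-1.69 ± 0.37, edgeR adjusted p = 0.019). A gene antisense to Kcnab3, Kcnab3os, overlaps it, and their reads may not have been separated.

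The single-condition Tac1 plates did not all follow these falls. At 4 days Cacna1h stood at 50.9 and 181.7 CPM on them and Kcnab3 at 61.1 and 114.4 CPM, the second of which lies among the untreated values of 95.9 and 123.6 CPM. No untreated cells shared those plates.

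**Figure D5:**
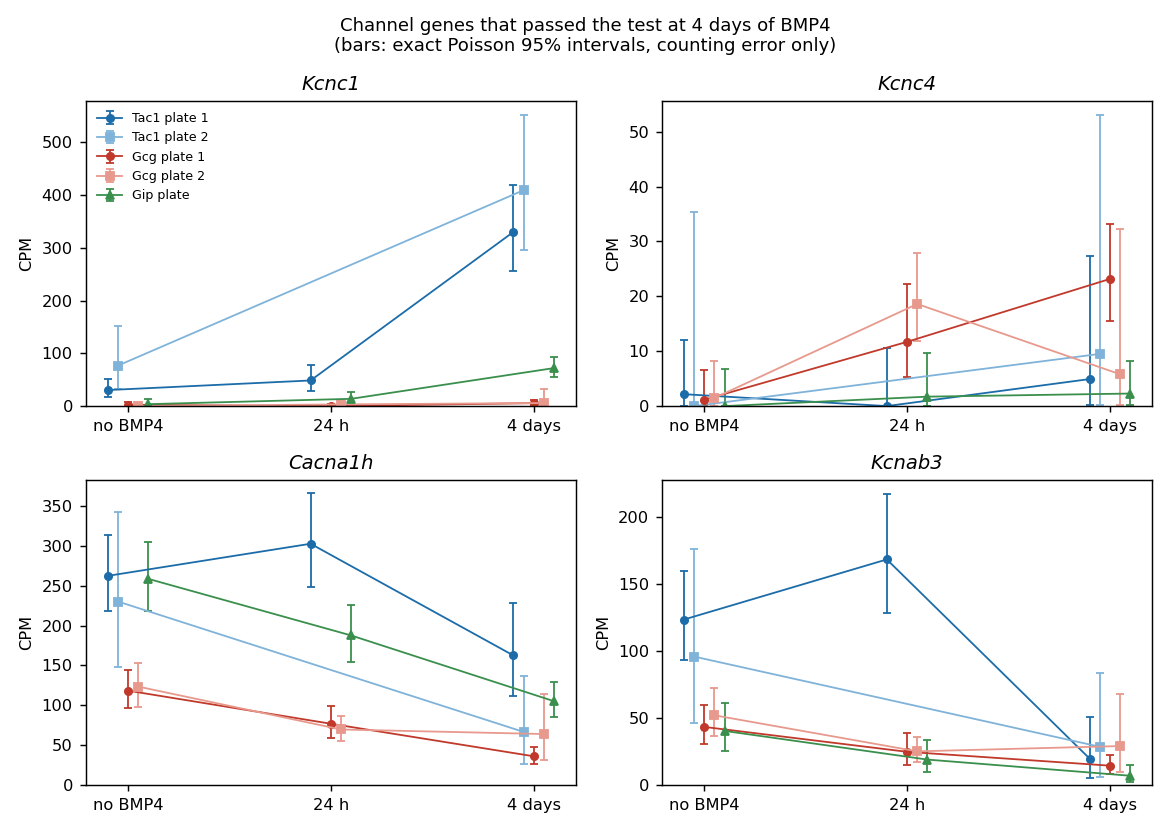
CPM of Kcnc1, Kcnc4, Cacna1h and Kcnab3 on 5 plates without BMP4, after 24 h and after 4 days; lines join the values of a plate and bars are exact Poisson 95% intervals. Kcnc1 reaches 329.9 and 409.0 CPM on the Tac1 plates at 4 days and 5.59 and 5.81 CPM on the Gcg plates, and Cacna1h and Kcnab3 are lower at 4 days than without BMP4 on every plate.

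The 4 calls at 4 days were not equally stable. Kcnc1 was called in 12 of 13 alternatives. The exception was the fit without the plate block, in which no channel gene was called. Cacna1h was not called without the Gip plate (edgeR adjusted p = 0.075, with a range of 0.00037 to 0.74 over alternatives). Kcnab3 was not called without the Gip plate or without Tac1 plate 1 (edgeR adjusted p = 0.14 and 0.053, range 5.1e-05 to 0.49), and Kcnc4 passed in 3 of the 7 alternatives in which it could be tested, and not without Tac1 plate 1 or Tac1 plate 2 (edgeR adjusted p = 0.052 and 0.081, range 0.012 to 0.092).

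None of the other channel genes tested passed at 4 days. Kcnb2 was higher at 4 days on 4 of 5 plates, with a log2 change of 1.22 ± 0.34 that missed the threshold (edgeR adjusted p = 0.065), and Scn3a was lower on 5 of 5, with a change of -0.80 ± 0.26 (edgeR adjusted p = 0.12). Abcc8 changed by -0.20 and Kcnj11 by -0.52 on the log2 scale, with edgeR adjusted p of 0.95 and 0.63. Cacna1a changed by -0.13 (edgeR adjusted p = 0.85). A p above the threshold does not show that these genes were unaffected.

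After 24 h none of 39 channel genes passed, where 0.0835% of all genes did. DESeq2 also called none, and 3 had an unadjusted p under 0.05 in edgeR, as did 2.68% of all genes. The smallest p belonged to Kcnk3, at 1.09 ± 0.33, and to Kcnc4, at 2.77 ± 0.86 (edgeR adjusted p = 1.00 for both). Kcnk3 went from 45.7 to 115.8 CPM and from 38.6 to 81.7 CPM on the Gcg plates, from 36.7 to 55.1 CPM on the Gip plate and from 8.67 to 22.9 CPM on Tac1 plate 1, higher on 4 of 4 plates.

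Within the lines, fewer sums gave less precision. In the Tac1 line Kcnc1 rose by 3.21 ± 0.58 (edgeR adjusted p = 0.014), the 1 call among 47 channel genes, where 1.90% of 10733 genes were called. The call was lost without Tac1 plate 1 (edgeR adjusted p = 0.32), without Tac1 plate 2 (0.20) and with a minimum of 4000 transcripts per cell (0.39), over a range that began at 3.7e-11. Cacna2d1 went from 143.1 to 423.4 CPM and from 134.3 to 237.8 CPM, a change of 1.48 ± 0.35 that missed the threshold (edgeR adjusted p = 0.055). It stood at 417.7 and 666.1 CPM on the single-condition plates of 4 days, above both untreated Tac1 plates. Kcnb2 went from 91.1 to 265.9 CPM and from 57.5 to 266.3 CPM (1.99 ± 0.49, edgeR adjusted p = 0.066). Of the 47 channel genes, Cacna2d2, Cacna2d3, Kcnj13, Kcnj3, Kcnk5 and Scnn1a had a fitted change of 0 and no SE in the Tac1 line. They could not have been called there.

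In the Gcg line none of 47 passed at 4 days (0.298% of all genes), with 9 at an unadjusted p under 0.05 (6.55% of all genes) and 1 called by DESeq2. Scn3a had the smallest p, going from 110.1 to 29.6 CPM and from 145.7 to 34.8 CPM (-1.80 ± 0.35, edgeR adjusted p = 0.065). None passed at 24 h in that line (0.0932% of all genes), with 5 at an unadjusted p under 0.05 (1.80% of all genes) and 0 by DESeq2. The difference between the 4 day responses of the 2 lines was tested itself, and no channel gene passed, as no gene of any kind did (0%). Cacna2d1 had the smallest p, with a response 2.31 ± 0.48 higher in the Tac1 line on the log2 scale (edgeR adjusted p = 0.17), and 5 of 47 had an unadjusted p under 0.05, as did 8.11% of all genes. DESeq2 called 1 channel gene in this comparison. Of the 47, Cacna2d2, Cacna2d3, Kcna6, Kcnj13, Kcnj3, Kcnk5 and Scnn1a had no usable SE in the edgeR fit, so they could not have been called there.

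Among genes that act with these channels, 4 lists were counted. The calcium sensors and exocytosis genes had 2 of 19 tested members that rose at 4 days and 0 that fell (median log2 change -0.04), and those 2 were Syt5 and Syt7, calcium sensors of vesicle fusion. Calcium release and removal had 1 of 14, the IP3 receptor Itpr3 (median 0.07), other cation channels had 1 of 12, Trpm2 (median -0.15), and the sodium and potassium pump 0 of 3 (median -0.09). Over all genes tested 2.63% rose and 0.908% fell. Between the untreated lines, 6 of 11 tested other cation channels were lower in the Gcg line and 0 higher (median -2.66), where 7.66% of all genes were called lower, among them Trpa1, Trpc5, Trpm2, Asic2 and Asic5. Calcium sensors and exocytosis genes had 1 higher and 2 lower of 19 (median 0.29), against a median of 0.09 for all genes.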

How the data were processed

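Per the labels' protocols, sorted cells were barcoded in plates by SORT-seq, with random identifiers that tell copies of 1 molecule from other molecules. The submitters' processing notes name BWA 0.6.2-r126 and the mm10 build. The sources used here do not state how reads were assigned to genes or whether strand was used. The authors deposited expected counts for each gene in each well. From the values these carry a correction for repeated identifiers: inverting it with 4096 identifiers gave whole numbers within 0.01 for 100.0% of values. The labels describe a random barcode of 4 bases, which allows fewer identifiers than that, and the files do not settle why. Conditions were taken from the column blocks of each plate, so condition and plate position coincide.

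Wells with at least 2000 transcripts were kept and summed by plate and condition, sums needed 10 cells, and sums were rounded. The 16115 genes listed in tables of both kinds were tested with edgeR 4.0.16 (R 4.3.3): filterByExpr, TMM, quasi-likelihood F test, plate as a block, Benjamini-Hochberg adjustment, threshold 0.05. The untreated lines were compared without a block. The SE given with an edgeR log2 difference is its size divided by the square root of F, so it restates the test and is not a separate estimate. All 127 channel genes matched GENCODE M21. Alternatives were DESeq2 1.42.0, other size factors, no filter, other cell minimums, an endocrine gate, no block and each plate left out. After the mean of each condition was taken out, sums from 1 plate correlated at 0.365 to 0.731 in 13 pairs. These residuals still hold the differences between reporter lines, so the correlation does not measure plate alone. The test was also run on simulated counts drawn without differences between plates, so that run does not cover plate-to-plate spread. Intervals and floors cover counting error only.

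Named genes are all that passed in a comparison, the 12 with the highest untreated mean, the 6 smallest p-values per comparison and a fixed set of well-known channels. Some genes that meet this rule are not reported here. The members and lists were chosen with earlier results of these data known. No doublet caller was run, since each well received 1 sorted cell.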

Additional observations from a re-analysis of the deposited data

Results flagged for a closer look

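Kcnj11 changed at 4 days of BMP4 by -1.77 on the log2(CPM + 1) scale on Gcg plate 1, far from the other 4 plates, which lay between -0.35 and 0.15. About 1 in 20 groups of plates shows such a gap by chance, so among many genes some are likely to show one. Kcnj11 rested on 2 transcripts without BMP4 and 1 at 4 days on Tac1 plate 1, and on 0 and 0 on Tac1 plate 2. The changes near 0 on these plates therefore carry little information. In the same order Gcg plate 1 held 23 and 9 transcripts, Gcg plate 2 25 and 5, and the Gip plate 57 and 84.

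The single-condition Tac1 plates entered no test. Among channel genes with small p-values for 4 days in the Tac1 line, at least 1 of these plates held a level above the highest untreated Tac1 plate for those given here. Kcnc1 stood at 346.4 and 410.4 CPM on the 4 day plates. Cacna2d1 stood at 295.8 CPM on the 24 h plate and at 417.7 and 666.1 CPM on the 4 day plates. Kcnb2 stood at 212.8 CPM at 24 h and at 356.5 and 309.5 CPM at 4 days. Kcnh8 stood at 6.73 CPM on 1 of the 4 day plates, which is 1 transcript and under the floor of 20.2 CPM that 3 counts give there, so no difference can be read from it. These plates have no untreated cells of their own, so plate and treatment cannot be told apart.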

How the results depend on the processing

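Counts of called channel genes changed with the settings. At 4 days over all plates (4 called), no filter on low counts gave 7, a minimum of 4000 transcripts 2 and no replicate block 0, and leaving out a plate gave 1 to 4. For 4 days against 24 h (1 called) the values were 3, 0 and 0 in that order, with 0 to 2 when a plate was left out. In the Tac1 line (1 called) other size factors gave 2, no filter 4, DESeq2 2, a minimum of 1000 transcripts 3, of 4000 transcripts 0, cells with Chga or Chgb 4, a minimum of 5 cells 2 and no replicate block 3, with 0 to 3 when a plate was left out. In the Gcg line at 4 days (0 called) no filter and DESeq2 gave 1 each and cells with Chga or Chgb 4. For the difference between lines (0 called) these 3 settings gave 1 each, and leaving out a plate 0 or 1. The untreated lines (18 called) gave 5 with DESeq2 and 5 to 17 when a plate was left out; pairing plates by number as a replicate block gave 15 of 26 tested. Both 24 h comparisons stayed at 0 throughout.

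Of 883 values of single genes, 763 kept direction and side of the threshold, 67 lost a call, 36 gained one and 17 changed sign, none of them called. The sign changes were Kcnc1 at 24 h (-0.005 without the block), Cacna1a at 24 h (-0.02 with 1000 transcripts, -0.12 with Chga or Chgb, -0.04 with 5 cells, -0.08 without Gcg plate 1, up to 0.19 with another plate left out), Abcc8 at 4 days (0.04 without the block), and, between the untreated lines, Cacna1a (0.06 with Chga or Chgb), Kcnb2 (0.10 without Tac1 plate 1, down to -0.67 with another left out) and Kcnj5 (0.01, 0.06, 0.25, 0.03, 0.38, 0.29, 0.03, 0.03 and 6.76, and -0.45 to 6.76 over the plates left out). Unthinned shares of cells were higher for all 25 values or equal. The causes were not tested. Depth limits the scarce genes: Kcnc4 and Kcnt1 rest on few transcripts on some plates.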
